A study of Mus musculus with 5 samples.

Results

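The surface colonocytes of the normal mouse colon were examined in a single inDrop library, in which each droplet tags the RNA molecules of 1 cell and the counts are unique molecular identifiers (UMIs). The library came from the colon of untreated mice labelled WT, prepared by a fibroblast dissociation, and its labels give a dual index structure. In the study's methods, crypts were removed by chelation and shaking before the enzymatic digestion of the stroma, so the epithelial cells described here are those that remained after crypt removal. The mice of the study were adults on a C57BL/6J or mixed C57BL/6J and 129 background, and the study's methods count the normal colon as a single sample. The other 4 libraries held WT mice with colon tumors made by AOM/DSS (azoxymethane, a carcinogen, followed by dextran sodium sulfate, an agent that injures the mucosa), all given 5FU+Irinotecan, a chemotherapy pair, and prepared by a normal dissociation. They were taken at day 1 in 2 libraries, at day 3 in 1 and at day 6 in 1.

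The colonic epithelium is renewed from stem cells at the crypt base. Their progeny divide in the lower crypt, stop dividing as they move upward, and reach the surface as absorptive colonocytes that take up salt, water and short-chain fatty acids and are then shed into the lumen. Surface cells are known for apical transporters, carbonic anhydrases, a brush border and proteins of the barrier, whereas crypt cells are known for chloride secretion, ribosome production and the cell cycle.

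Members were chosen from measured counts, in 3 steps. Of 1108 barcodes, 1095 had at least 500 detected genes and at most 15% mitochondrial counts. Columnar cells were those with at least 5 UMIs of Krt8, Krt18 and Lgals4 together, fewer than 3 UMIs of the immune, endothelial and stromal genes Ptprc, Tyrobp, Pecam1, Dcn and Vim, and fewer than 15 UMIs per 10000 of the goblet cell genes Muc2, Fcgbp, Zg16 and Clca1. They numbered 262, or 23.9% of the kept cells (exact binomial 95% interval 21.4 to 26.6%). Each columnar cell was then scored by the sum of Sprr2a1, Sprr2a2, Sprr2a3, Tgm3, Gsdmc4 and Dmbt1 per 10000 of its UMIs. The 131 cells above the median score of 139.2 are the surface cells, and the 131 cells below it are called crypt-like. The surface cells made up 131 of the 8491 kept cells of all 5 libraries.

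The scores ran on through the median, so the limit cuts a continuous range. The 3 surface cells nearest the limit scored 139.5, 140.6 and 143.3, and the 3 crypt-like cells nearest to it 138.8, 137.2 and 134.7. Scores of surface cells reached 1037 with a median of 353, while crypt-like cells had a median of 22.5 and 5 of them had no UMI of the 6 genes. Surface cells held a median of 5029 UMIs (lowest 829, highest 43916) and crypt-like cells 7199 (lowest 1336, highest 63094). The surface cells were therefore the shallower group, and both ranges overlapped widely. When each cell was thinned to 1000 UMIs, which left out 2 surface cells and no crypt-like cell, the median number of detected genes was 672 in surface and 716 in crypt-like cells, against 2103 and 2837 before thinning. Score and depth had a Spearman correlation of -0.21 over the 262 columnar cells. Mitochondrial counts had a median of 3.23% in surface and 2.47% in crypt-like cells.

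**Figure D1:**
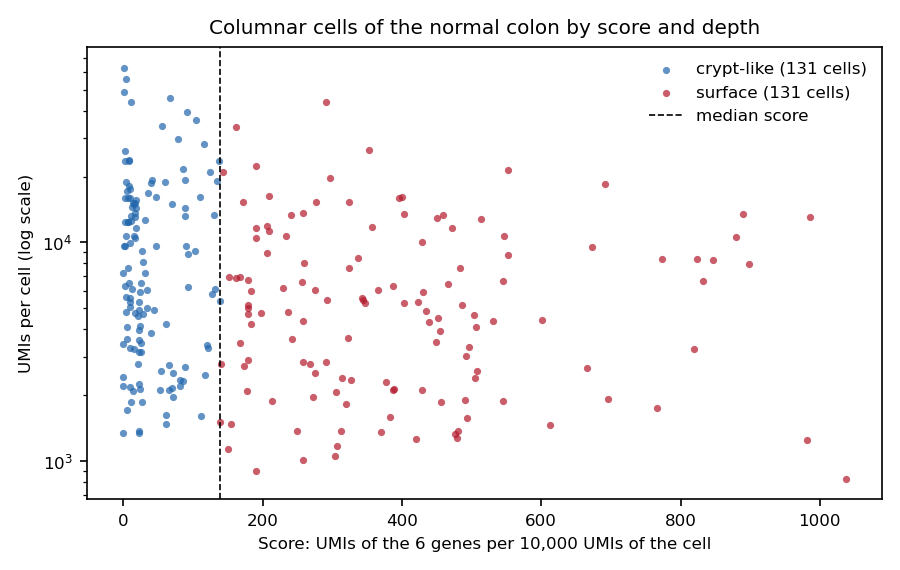
Score of the 6 genes per 10000 UMIs (horizontal axis) against UMIs per cell on a log scale (vertical axis) for the 262 columnar cells of the normal colon, 1 point per cell, with the median score as a dashed line. The scores run without a gap through the limit of 139.2, and surface cells (red) reach scores of up to 1037.

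Levels below are given as CPM, the UMIs of a gene in 1000000 UMIs of a group of cells, and a ratio is the CPM of surface cells over that of crypt-like cells. There is 1 library and its cells are not replicates, so no difference was tested. The 95% intervals are exact (conditional binomial for a ratio) and cover counting error only, not the spread between cells or animals. Because all cells of both groups entered the choice of members, every ratio within this library describes the chosen groups and supports nothing further.

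The score rested mostly on 3 small proline-rich proteins, Sprr2a1, Sprr2a2 and Sprr2a3, which are cross-linked into the tough envelope of stratified epithelia and are also made by the gut surface. They held 78.4% of the UMIs of the 6 genes in surface cells and 34.8% in crypt-like cells. The 6 genes together were 3.83% of all UMIs of surface cells and 0.403% of those of crypt-like cells. The 3 Sprr2a genes lie close together on chromosome 3 and nearly share their sequence, as the RefSeq promoters (build GRCm38.p6, 250 bases before the transcription start to 50 after it, plus strand) show. Sprr2a1 (chr3:92215585-92215884) and Sprr2a3 (chr3:92285054-92285353) are printed to show this, with capitals at matches to the motifs listed further on:
Sprr2a1: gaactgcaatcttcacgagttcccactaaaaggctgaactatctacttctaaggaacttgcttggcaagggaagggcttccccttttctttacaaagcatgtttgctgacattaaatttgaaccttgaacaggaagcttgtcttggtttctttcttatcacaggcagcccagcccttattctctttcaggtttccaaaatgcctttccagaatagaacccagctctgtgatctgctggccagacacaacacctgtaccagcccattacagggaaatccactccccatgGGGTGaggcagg
Sprr2a3: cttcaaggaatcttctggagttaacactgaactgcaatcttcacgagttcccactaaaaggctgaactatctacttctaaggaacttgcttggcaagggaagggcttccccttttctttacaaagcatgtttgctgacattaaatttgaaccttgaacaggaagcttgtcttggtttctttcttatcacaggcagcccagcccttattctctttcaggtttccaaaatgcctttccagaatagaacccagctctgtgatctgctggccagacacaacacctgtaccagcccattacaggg

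The Sprr2a2 window (chr3:92250397-92250696) matched that of Sprr2a1 at 300 of 300 bases. Sprr2a3 matched it at all 272 bases that overlap once its annotated start, 28 bases apart in the shared sequence, is set aside. In the last 400 bases of the annotated transcripts, all 351 stretches of 50 bases of Sprr2a1 were also in Sprr2a2 and 275 were also in Sprr2a3. Reads of the 3 genes therefore could be split or shared by the counting, and their levels are best read together.

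The genes of the score differed widely in how far apart the chosen groups lay. Sprr2a1 had 12598 CPM in surface and 594 CPM in crypt-like cells, a ratio of 21.2, and Sprr2a2 and Sprr2a3 had ratios of 21.8 and 20.7. Tgm3, the transglutaminase that cross-links envelope proteins, had 4019 against 494 CPM, a ratio of 8.13. Dmbt1, a secreted scavenger receptor that binds bacteria, had a ratio of 2.25, and Gsdmc4, a gasdermin of the pore-forming family, 1.63. Sprr2a1 had at least 1 UMI in all 131 surface cells, Tgm3 in 125, Dmbt1 in 128 and Gsdmc4 in 111. Across the 131 surface cells, Sprr2a1 per 10000 UMIs had a Spearman correlation of 0.98 with Sprr2a2, 0.21 with Tgm3, -0.15 with Dmbt1 and -0.39 with Gsdmc4. Over all 262 columnar cells the same values were 0.97, 0.76, 0.50 and 0.20. The values share a denominator, and choosing cells by the sum of these genes can lower correlations among them within the chosen cells.

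The markers that the rule did not use were mostly higher in the surface cells. Krt20, the keratin of differentiated intestinal epithelium, had lowest, median and highest values of 0, 5.70 and 39.3 UMIs per 10000 in surface cells and 0, 0 and 10.5 in crypt-like cells. Slc26a3, the apical chloride and bicarbonate exchanger, had 0, 13.6 and 157 in surface and 0, 0 and 37.4 in crypt-like cells. The ranges of both groups overlapped for each gene, since some surface cells had no UMI of it. The ratio of summed CPM was 20.3 (95% interval 15.4 to 27.2) for Krt20 and 13.97 (95% interval 11.9 to 16.5) for Slc26a3, and 1 crypt-like cell held 45.5% of the Krt20 UMIs of its group. Ceacam1, an adhesion receptor of the apical membrane, had a ratio of 1.65 (95% interval 1.55 to 1.76). The label did not hold for all markers. Gsdmc2, a relative of Gsdmc4, had 543 against 497 CPM, a ratio of 1.09 (95% interval 0.972 to 1.23), and Clca4a, a calcium-activated chloride channel regulator listed as a surface marker, had 0 UMIs in surface and 4 in crypt-like cells.

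The markers of crypt cells all had more UMIs in the crypt-like cells. Lgr5, the receptor of colonic stem cells, had 1 UMI in surface and 27 in crypt-like cells, and Ascl2, a stem cell transcription factor, 3 and 49. Mki67, a marker of dividing cells, had 0 and 74 UMIs, which with a floor of 3 counts over the surface group is at least 15.2-fold lower in surface cells. Top2a, the topoisomerase of dividing cells, had a ratio of 0.0949 (95% interval 0.0447 to 0.179), and Slc12a2, the basolateral chloride importer of secreting crypt cells, 0.226 (95% interval 0.164 to 0.307). In surface cells 1 cell held 41.7% of the Slc12a2 UMIs.

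Of 6587 genes with at least 50 UMIs over both groups, 389 (5.91%) had a CPM at least 2 times higher in surface cells, and 985 (15%) had at most 0.5 times the CPM. The median log2 ratio over these genes, with 20 CPM added to each side, was -0.12, and list medians below are on this scale and are to be read against it. Cytoplasmic ribosomal protein genes were a large share of all UMIs, with a summed level of 55151 CPM in surface and 142623 CPM in crypt-like cells.

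Transporters and enzymes of salt and water uptake stood at the top of the comparison. Named genes are the 15 with the highest and the 15 with the lowest log2 ratio among genes with at least 100 UMIs, apart from those used to choose the cells and mitochondrial genes. Car4, a membrane-bound carbonic anhydrase, had lowest, median and highest values of 0, 0.295 and 64.4 UMIs per 10000 in surface cells and 0, 0 and 4.83 in crypt-like cells. It had at least 1 UMI in 66 of 131 surface cells and in 8 crypt-like cells, so the groups overlapped at 0 and many surface cells had none at this depth. The level was 601 against 6.74 CPM, a ratio of 89.1 (95% interval 48.1 to 187). Aqp8, a water channel of the absorptive epithelium, had 546 against 12.8 CPM, a ratio of 42.6 (95% interval 27.0 to 71.4), with UMIs in 76 surface and 15 crypt-like cells. Car1, a cytosolic carbonic anhydrase, was found in more of the surface cells, 111 against 42 crypt-like cells, at 2852 and 282 CPM, a ratio of 10.1 (95% interval 9.12 to 11.2). Fxyd4, a regulator of the sodium pump, and Slc15a1, the proton-coupled peptide transporter, had ratios of 28.3 (95% interval 16.2 to 54.0) and 37.9 (95% interval 19.6 to 83.9).

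Host defense and stress genes formed another set at the top. Saa1, serum amyloid A, an acute phase protein that epithelial cells also secrete, had lowest, median and highest values of 0, 20.5 and 212 UMIs per 10000 in surface and 0, 0 and 9.44 in crypt-like cells. Most surface cells, 112 of them, had at least 1 UMI of Saa1, and 39 crypt-like cells did, so the groups overlapped at low values. Its level of 3417 CPM against 56.7 CPM gave a ratio of 60.3 (95% interval 48.6 to 75.8). Ifit1bl1, a gene of the interferon-induced Ifit family, was found in only 26 surface cells, and 1 of these held 15.3% of its 124 UMIs. Against 2 UMIs in crypt-like cells its ratio was 101 (95% interval 27.3 to 839.7). Prdx6, a peroxiredoxin that repairs oxidized membrane lipids, was detected in all but 1 surface cell and had 8859 against 1064 CPM, a ratio of 8.32 (95% interval 7.89 to 8.79). Cyp2c55, a cytochrome P450 of colon, had a ratio of 7.97 (95% interval 6.62 to 9.65), and Sectm1b, a secreted and transmembrane protein of the immune system, 24.3 (95% interval 16.7 to 36.7).

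Further genes at the top act in adhesion and growth arrest. Mxd1, which opposes Myc on their common DNA sites, had 1356 against 179 CPM, a ratio of 7.56 (95% interval 6.61 to 8.66). Ceacam20, an adhesion molecule of microvilli, had a ratio of 14.5 (95% interval 10.5 to 20.7). Pmp22, a tetraspan membrane protein of junctions and myelin, had 10.7 (95% interval 8.92 to 12.9). Stromal cells of the same library also held Pmp22, at 524 CPM. Prdx6 was at 254 CPM there, and the other 13 genes at the top at 88.0 CPM or less.

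The size of these ratios depended on the Sprr2a genes of the score. With cells scored by Tgm3, Gsdmc4 and Dmbt1 alone, 363 genes were at least 2 times higher and 774 at most 0.5 times. The genes at the top stayed above 1 but lay much lower, with ratios of 6.05 for Saa1, 6.11 for Car4, 5.30 for Aqp8, 4.87 for Krt20 and 5.79 for Slc26a3. Setting the 88 cells of highest score against as many of lowest score gave higher ratios, 137 for Saa1, 49.0 for Slc26a3, 27.4 for Prdx6 and 10.2 for Lypd8, which is described further on. When cells with any UMI of the 5 immune, endothelial and stromal genes were left out, 88 surface cells remained and the ratios of Saa1 and Aqp8 were 82.6 and 73.2.

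**Figure D2:**
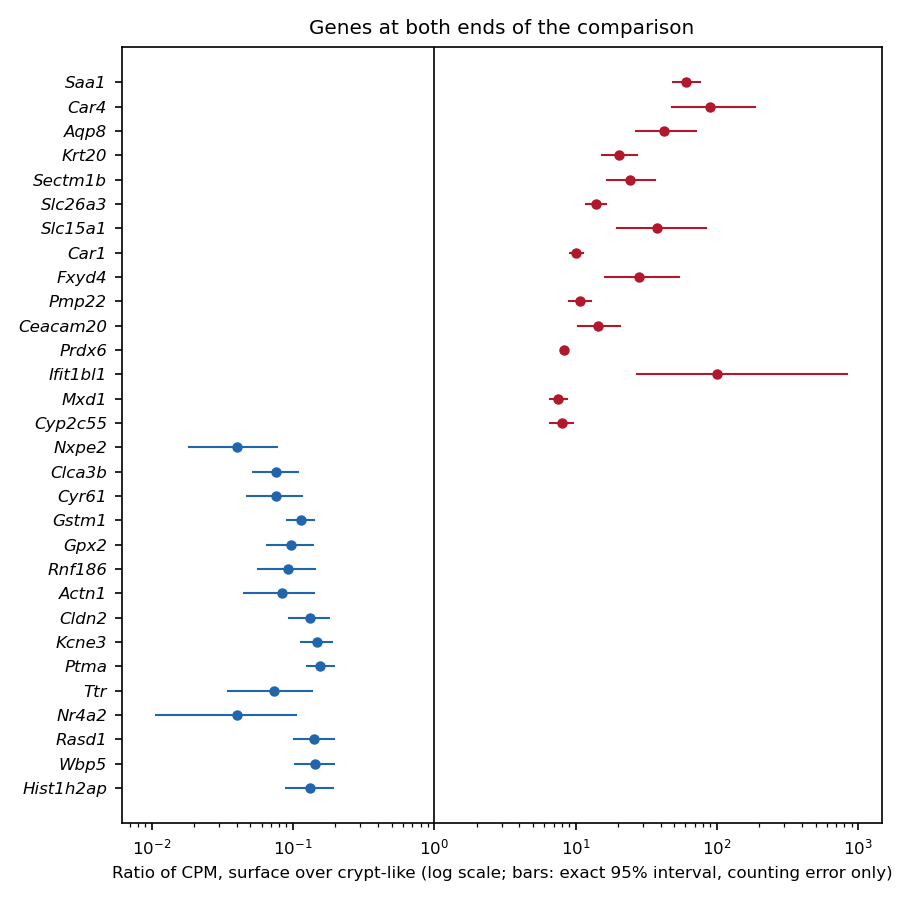
Ratio of CPM in surface over crypt-like cells (log axis) for the 15 genes with the highest (red) and the 15 with the lowest (blue) log2 ratio, with exact 95% intervals that cover counting error only. The highest lie between 7.56 for Mxd1 and 101 for Ifit1bl1, and the lowest between 0.0401 for Nr4a2 and 0.157 for Ptma.

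Free RNA in droplets can give UMIs to cells that do not make a gene, and stromal cells are given for comparison. They were the 427 kept cells with at least 5 UMIs of Dcn, Col1a1 and Col3a1 and fewer than 5 of the columnar genes, with a median of 2385 UMIs. At 1000 UMIs per cell, Car4 had a UMI in 34.9% of surface, 1.53% of crypt-like and 1.56% of stromal cells. Aqp8 had a UMI in 38.0%, 0.763% and 1.30%, and Krt20 in 43.4%, 3.82% and 1.82%. The shares of crypt-like cells for Car4 and Aqp8 rested on 2 and 1 cells, and the stromal shares on 6 and 5, too few to rank the groups. At full depth Car4 had 6.74 CPM in crypt-like and 10.4 CPM in stromal cells, and Aqp8 12.8 and 8.80 CPM. Whether these counts in crypt-like cells are background was not tested. Saa1 gave 70.5% of surface, 3.82% of crypt-like and 10.2% of stromal cells, with the crypt-like share below the stromal one. Sprr2a1 gave 100%, 29.0% and 17.2%, with the crypt-like share above the stromal one. The part of background in its counts in crypt-like cells was not tested.

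The promoters of the 4 genes that led the ranking are printed with the same capitals, to show what genes that were high in the same cells share near their start. Saa1 (chr7:46742931-46743230) and Krt20 (chr11:99438104-99438403) are on the minus strand, Car4 (chr11:84957504-84957803) and Aqp8 (chr7:123462044-123462343) on the plus strand, all in GRCm38.p6:
Saa1: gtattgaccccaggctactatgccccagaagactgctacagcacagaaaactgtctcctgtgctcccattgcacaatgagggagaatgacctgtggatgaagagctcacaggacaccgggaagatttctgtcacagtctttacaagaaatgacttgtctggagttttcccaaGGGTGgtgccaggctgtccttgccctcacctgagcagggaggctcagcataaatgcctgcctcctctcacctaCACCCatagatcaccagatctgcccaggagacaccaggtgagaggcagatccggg
Car4: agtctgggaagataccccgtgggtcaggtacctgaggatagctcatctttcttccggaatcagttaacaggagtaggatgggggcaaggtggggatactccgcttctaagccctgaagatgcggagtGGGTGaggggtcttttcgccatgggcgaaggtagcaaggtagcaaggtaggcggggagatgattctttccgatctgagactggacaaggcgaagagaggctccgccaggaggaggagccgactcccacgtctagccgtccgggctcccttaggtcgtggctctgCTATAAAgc
Aqp8: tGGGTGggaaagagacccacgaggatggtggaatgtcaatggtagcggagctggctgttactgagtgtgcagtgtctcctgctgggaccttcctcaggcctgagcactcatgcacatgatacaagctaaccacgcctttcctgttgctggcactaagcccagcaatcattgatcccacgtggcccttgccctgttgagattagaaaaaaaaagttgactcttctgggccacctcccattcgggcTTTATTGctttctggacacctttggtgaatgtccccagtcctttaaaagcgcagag
Krt20: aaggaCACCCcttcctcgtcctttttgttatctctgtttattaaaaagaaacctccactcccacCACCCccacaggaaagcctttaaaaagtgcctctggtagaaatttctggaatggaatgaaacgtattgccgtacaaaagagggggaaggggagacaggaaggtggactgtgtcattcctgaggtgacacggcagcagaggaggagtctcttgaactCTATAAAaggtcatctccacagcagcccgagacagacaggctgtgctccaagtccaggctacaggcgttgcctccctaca

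Motifs were searched on both strands. The TATA box was searched as TATAAA. The letters for KLF factors were CACCC. For CDX factors the letters were TTTATNG, where N is any base, and a TATA box that follows C also reads as this motif on the other strand. The letters for HNF4 were CAAAGNNCA. The TATA box lay at position -29 from the start in Krt20 and at 42 in Car4, and both matches overlap a CDX match. Aqp8 held a CDX match at position -6, and none of the promoters matched the HNF4 letters. The KLF letters were found in all 4 promoters and in Sprr2a1, but 57.5% of all 32851 promoters of this length hold it. The other shares were 13.6% for the TATA box, 10.9% for CDX and 6.36% for HNF4. A match describes letters only and shows no binding.

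Ion and water transport genes lay at both ends. Of 30 listed genes, 25 passed the minimum of 50 UMIs, and 11 were at least 2 times higher and 5 at most 0.5 times, with a median log2 ratio of 0.74. Absorptive genes were on the higher side, among them Slc9a2, a sodium and proton exchanger, with a ratio of 4.45 (95% interval 3.67 to 5.42), Atp12a, the colonic proton and potassium pump, with 3.38 (95% interval 2.94 to 3.90), and Scnn1a, a subunit of the epithelial sodium channel, with 3.69 (95% interval 2.74 to 5.02). Slc26a2, a sulfate transporter, had 4102 against 1445 CPM, a ratio of 2.84. The lower side held genes of chloride secretion and the water channel Aqp1, with 3 and 47 UMIs, a ratio of 0.104 (95% interval 0.0206 to 0.322). Cftr, the chloride channel, had a ratio of 0.195 (95% interval 0.134 to 0.277), Kcnn4, a calcium-activated potassium channel, 0.120 (95% interval 0.0608 to 0.216), and Kcne3, the potassium channel subunit that serves chloride secretion, 0.148 (95% interval 0.114 to 0.190). Slc5a8, which carries short-chain fatty acids, and Car2, the cytosolic carbonic anhydrase, were between the limits, with ratios of 0.888 (95% interval 0.744 to 1.06) and 1.02 (95% interval 0.966 to 1.07).

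The list of surface colonocyte genes, which overlaps the transport list, had 14 of 20 genes at least 2 times higher and 1 at most 0.5 times, a median log2 ratio of 1.32. Lypd8, a secreted GPI-linked protein that keeps flagellated bacteria from the epithelium, had a UMI in every surface cell, with lowest, median and highest values of 4.71, 126 and 333 UMIs per 10000 against 0, 18.3 and 159.8 in crypt-like cells. Both ranges overlapped, and the highest crypt-like cell lay above the surface median. Its ratio was 4.73 (95% interval 4.57 to 4.90). Plac8, a small cysteine-rich protein, had a ratio of 4.08 (95% interval 3.79 to 4.39), and Guca2a, the precursor of guanylin, which controls salt and water flow through guanylate cyclase C, 2.52 (95% interval 2.29 to 2.77). The membrane mucins differed among themselves, with ratios of 2.17 (95% interval 2.08 to 2.26) for Muc3 and 1.21 (95% interval 1.15 to 1.27) for Muc13. Cd177 was the listed gene that lay at most at 0.5 times, with a ratio of 0.131 (95% interval 0.0683 to 0.230).

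Brush border genes, which build and equip the microvilli, were mostly higher in surface cells. Of 21 genes with at least 50 UMIs, 12 were at least 2 times higher and 2 at most 0.5 times, a median log2 ratio of 0.98. The protocadherins that link microvillus tips had ratios of 3.72 (95% interval 3.27 to 4.25) for Cdhr5 and 2.83 (95% interval 2.29 to 3.51) for Cdhr2, and Espn, an actin-bundling protein, had 4.60 (95% interval 3.30 to 6.51). Mep1a, a subunit of the metalloprotease meprin, had 376 against 74.2 CPM, a ratio of 5.07 (95% interval 4.08 to 6.35). Villin itself, Vil1, had 1.54 (95% interval 1.32 to 1.78). Dpp4, a peptidase of the microvilli, and Baiap2l2, a membrane-bending protein, lay at most at 0.5 times, with ratios of 0.143 (95% interval 0.0508 to 0.328) and 0.188 (95% interval 0.0996 to 0.327), and Myo1d, an unconventional myosin, had 0.561 (95% interval 0.443 to 0.706).

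Barrier genes gave a mixed account. Of 25 junction and adhesion genes, 3 were at least 2 times higher and 3 at most 0.5 times, and the other 19 lay between. The claudins, which set the permeability of tight junctions, covered the whole span. Cldn23 and Cldn8 had ratios of 2.44 (95% interval 2.00 to 2.98) and 2.41 (95% interval 1.83 to 3.18), Cldn3 and Cldn7 1.74 and 1.62, and the pore-forming Cldn15 and Cldn2 0.286 (95% interval 0.171 to 0.458) and 0.132 (95% interval 0.0945 to 0.180). In surface cells 1 cell held 51.2% of the 43 Cldn2 UMIs. Tjp1, the scaffold ZO-1, had 1.58, and Itga6, the laminin receptor at the basement membrane, 0.420 (95% interval 0.347 to 0.505).

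Among genes of cornification and barrier, 5 of 18 were at least 2 times higher and 2 at most 0.5 times. Evpl, the envelope protein envoplakin, had a ratio of 3.68 (95% interval 2.52 to 5.45) and no UMI in the stromal cells. Capn5, a calpain protease, had 4.13 (95% interval 2.76 to 6.29), and the calcium-binding S100a14 and S100a6 had 2.32 (95% interval 1.98 to 2.73) and 2.01 (95% interval 1.94 to 2.09). Keratins differed in direction. Krt8 and Krt18, which pair in simple epithelia and were both part of the columnar rule, had ratios of 1.71 (95% interval 1.65 to 1.76) and 0.595 (95% interval 0.516 to 0.684), Krt19 had 1.51 (95% interval 1.42 to 1.60), and Krt7 0.261 (95% interval 0.170 to 0.388). Squamous genes, keratins and others, were at the floor in the cells high in Sprr2a and Tgm3. Of 16 listed, 13 were among the genes counted in this library, and 8 of these had a UMI. Together they summed to 8.75 CPM in surface and 18.2 CPM in crypt-like cells, and Krt14 had 0 and 7 UMIs.

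Antigen presentation genes were higher in surface cells in 12 of 12 cases, and 7 were at least 2 times higher, with a median log2 ratio of 0.82. The 3 MHC class II chains and their invariant chain Cd74, which serve the presentation of extracellular peptides, had the highest ratios of the list, 6.04 (95% interval 4.50 to 8.22) for H2-Aa, 4.76 (95% interval 3.64 to 6.28) for Cd74, 3.93 (95% interval 2.80 to 5.57) for H2-Ab1 and 3.45 (95% interval 2.33 to 5.19) for H2-Eb1. H2-Aa had a UMI in 55 surface and 34 crypt-like cells, and at 1000 UMIs per cell in 20.2% of surface, 3.05% of crypt-like and 7.29% of stromal cells. Averaged over cells, the ratios were 3.28 for H2-Aa and 2.81 for Cd74, and with the Sprr2a genes left out of the score 2.71 and 2.82. The class I gene H2-K1 had a ratio of 2.02 (95% interval 1.82 to 2.24), and B2m, its partner chain, 1.18 (95% interval 1.03 to 1.35). The measured immune genes summed to 219 CPM in surface and 376 CPM in crypt-like cells. A crypt-like cell with 215 of the 426 Igha UMIs of its group set this order, and without it, in an alternative added after seeing the data, the crypt-like sum was 199.8 CPM, a ratio of 1.10 (95% interval 0.911 to 1.31). Lyz2, a lysozyme of myeloid cells, had 31.7 against 26.3 CPM, a ratio of 1.21 (95% interval 0.719 to 2.00), and Ptprc and Tyrobp were limited by the rule. The part of immune RNA in the class II values was not tested.

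Defense genes did not share a direction. Of 20, Saa1 included, 4 were at least 2 times higher and 5 at most 0.5 times, and the median log2 ratio was -0.08. Il18, an epithelial cytokine, Gsdmd, the executioner of pyroptosis, and Ly6a had ratios of 2.07 (95% interval 1.69 to 2.54), 2.15 (95% interval 1.63 to 2.83) and 3.79 (95% interval 3.14 to 4.58). Pigr, which carries IgA to the lumen, had 0.909 (95% interval 0.862 to 0.958). Reg4, a lectin of deep crypt secretory cells, had 0.315 (95% interval 0.243 to 0.403), and 1 surface cell held 75.3% of its 77 UMIs in that group. Ifitm2, an antiviral membrane protein, and Duox2, the epithelial hydrogen peroxide source, had ratios of 0.104 (95% interval 0.0546 to 0.183) and 0.0444 (95% interval 0.00528 to 0.166).

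Detoxifying and redox genes lay on both sides. The list had 9 genes at least 2 times higher and 7 at most 0.5 times among 33. Cytochromes Cyp4f14 and Cyp3a13, the carboxylesterase Ces2a and the sulfotransferase Sult1b1 had ratios of 4.60 (95% interval 3.23 to 6.68), 2.60 (95% interval 2.02 to 3.37), 2.62 (95% interval 2.04 to 3.39) and 2.61 (95% interval 2.13 to 3.22). The metallothioneins Mt2 and Mt1, which bind zinc and copper, had 2.92 (95% interval 2.61 to 3.28) and 2.21 (95% interval 2.05 to 2.37). The glutathione peroxidase Gpx2 and the glutathione transferase Gstm1 had 0.0969 (95% interval 0.0652 to 0.139) and 0.114 (95% interval 0.0905 to 0.141), whereas the peroxidases Gpx1 and Gpx4 had 1.05 (95% interval 0.923 to 1.19) and 1.54 (95% interval 1.07 to 2.24). The sulfotransferase Sult1a1 had 0.334 (95% interval 0.263 to 0.421).

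Fatty acid and ketone genes, which serve the oxidation of butyrate, differed little, with 2 of 22 at least 2 times higher and a median log2 ratio of -0.01. Plin2, the coat of lipid droplets, had a ratio of 2.49 (95% interval 2.07 to 3.01).

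Cell cycle and stem cell genes were low in surface cells. All 22 of the 22 proliferation genes with at least 50 UMIs had at most 0.5 times the CPM, a median log2 ratio of -1.60, and their summed level was 676 against 3210.5 CPM. Ccnd2, a cyclin of the G1 phase, had a ratio of 0.249 (95% interval 0.215 to 0.286), and Stmn1, which controls microtubules in dividing cells, 0.117 (95% interval 0.0711 to 0.182). Stem and WNT genes had 9 of 13 at most 0.5 times and none at least 2 times higher. Sox4 and Ephb3, a transcription factor and a receptor of the crypt base, had ratios of 0.204 (95% interval 0.136 to 0.295) and 0.244 (95% interval 0.155 to 0.370), and Myc had 1 UMI in surface and 90 in crypt-like cells, a ratio of 0.0180 (95% interval 0.000451 to 0.103). Sox9, a factor of the lower crypt, lay closer to 1, with a ratio of 0.542 (95% interval 0.452 to 0.646).

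Ribosomal protein genes gave the broadest pattern, with 72 of 80 at most 0.5 times, none with a ratio above 1, and ratios from 0.214 to 0.763. The mitochondrially encoded genes had 9 of 9 between the limits, with ratios from 0.991 to 1.75.

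The remaining genes at the low end came from several functions. Nxpe2, a member of the neurexophilin-like family, had 9.85 against 243 CPM, a ratio of 0.0404 (95% interval 0.0183 to 0.0776). Clca3b, a relative of the calcium-activated chloride channel regulators, had a ratio of 0.0760 (95% interval 0.0519 to 0.108), and 1 surface cell held 63.6% of its 33 UMIs there. Cyr61, a matrix protein and YAP target, and Actn1, an actin cross-linker, had ratios of 0.0758 (95% interval 0.0470 to 0.116) and 0.0832 (95% interval 0.0449 to 0.142). Both were abundant in stromal cells, at 872 and 350.3 CPM, whereas Nxpe2, Gpx2, Rnf186, Cldn2, Kcne3, Ttr and Clca3b were at 20 CPM or less there. Rnf186, a ubiquitin ligase of the intestinal epithelium, had 0.0921 (95% interval 0.0563 to 0.143), Ptma, a nuclear protein of growing cells, 0.157 (95% interval 0.125 to 0.194), and Ttr, transthyretin, 0.0731 (95% interval 0.0346 to 0.137). The immediate early nuclear receptor Nr4a2 had 0.0401 (95% interval 0.0108 to 0.105), the small GTPase Rasd1 0.142 (95% interval 0.101 to 0.194), Wbp5 0.144 (95% interval 0.103 to 0.196) and the histone Hist1h2ap 0.132 (95% interval 0.0887 to 0.191).

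Of 31 transcription factors, 2 were at least 2 times higher and 3 at most 0.5 times. Klf4, a factor of terminal differentiation and growth arrest, had 3200.4 against 1017 CPM, a ratio of 3.15 (95% interval 2.96 to 3.35). Hnf4a and Cdx2, factors of intestinal identity, had ratios of 1.99 (95% interval 1.79 to 2.22) and 1.70 (95% interval 1.40 to 2.08), and Nr3c2, the mineralocorticoid receptor, 1.99 (95% interval 1.73 to 2.29). Hoxb13 and Hoxd13, which mark the distal gut, had 1.12 (95% interval 1.04 to 1.22) and 1.11 (95% interval 0.856 to 1.45). Foxa3 and Foxa2, factors of secretory cells, lay on the lower side, with 0.342 (95% interval 0.208 to 0.540) and 0.426 (95% interval 0.277 to 0.638).

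Signalling genes lay on both sides. Of 16 BMP, TGF-beta and Notch genes, 2 were at least 2 times higher and 4 at most 0.5 times. Bmp2, a ligand that opposes stem cell renewal, had the highest ratio of this list, with 523 against 113 CPM, 4.62 (95% interval 3.86 to 5.54), and UMIs in 96 surface and 50 crypt-like cells. Notch1 and the Notch target Hes1 had 0.275 (95% interval 0.125 to 0.542) and 0.487 (95% interval 0.411 to 0.573). Of 9 EGF and ERBB genes, 1 was at least 2 times higher, the receptor Erbb2 with 2.02 (95% interval 1.36 to 3.00), and the ligand Areg had 1.95 (95% interval 1.76 to 2.16). Among genes of hypoxia and cell death, 5 of 21 were at least 2 times higher and none at most 0.5 times. Cdkn1a, the cyclin-dependent kinase inhibitor p21, had a ratio of 5.34 (95% interval 4.71 to 6.07), Slc2a1, a glucose transporter, 3.16 (95% interval 2.51 to 3.99), and Mcl1, which protects from apoptosis, 2.22 (95% interval 1.97 to 2.49). Of 19 immediate early and heat shock genes, which respond to dissociation, 7 had ratios above 1, none was at least 2 times higher and 5 were at most 0.5 times, with 0.209 (95% interval 0.155 to 0.278) for the chaperone Hspa1a and 0.865 (95% interval 0.831 to 0.901) for Fos.

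**Figure D3:**
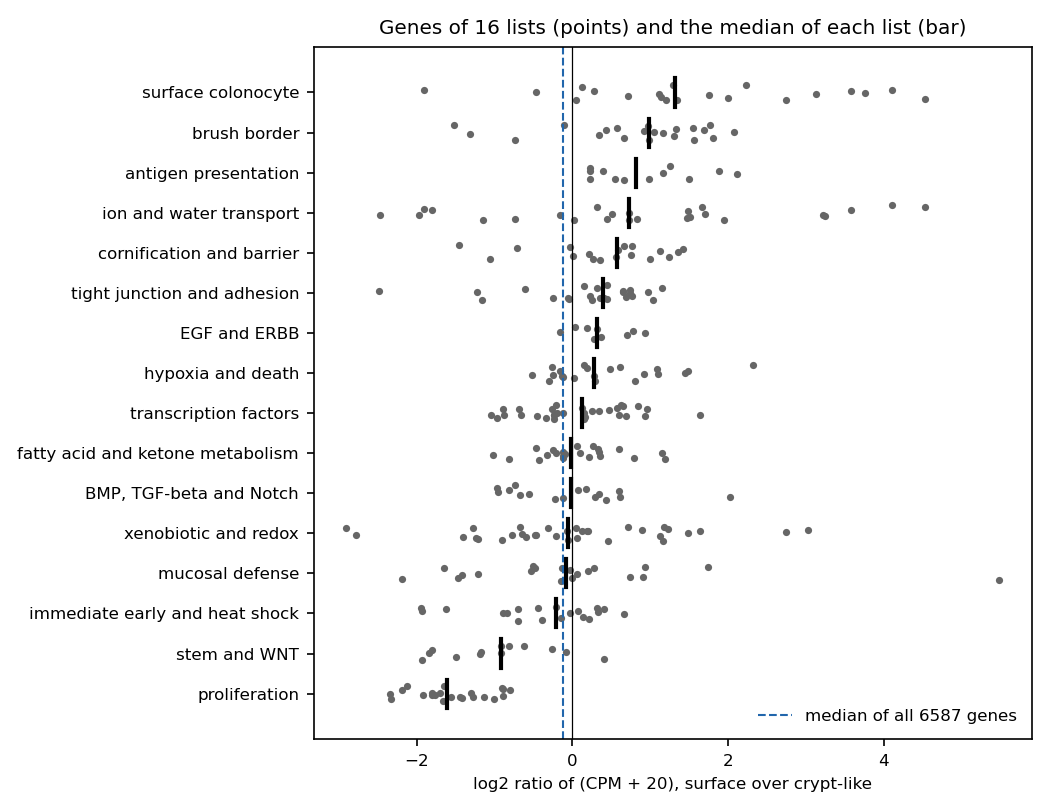
Log2 ratio of CPM with 20 added, surface over crypt-like (horizontal axis), for genes with at least 50 UMIs in 16 lists, 1 point per gene, with the median of each list as a black bar and the median of all 6587 genes as a dashed line. List medians run from -1.60 for proliferation to 1.32 for surface colonocyte genes, and the ion and water transport list spreads to both ends.

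Ordered by score and cut into 4 groups of 65 or 66 cells, the columnar cells showed that the surface cells differed among themselves along the score. In order of rising score, Car4 had 3.74, 10.3, 181 and 1069 CPM and Aqp8 4.99, 22, 176 and 958 CPM. Saa1 had 38.7, 77.8, 1233 and 5852 CPM. Stromal cells held 10.4, 8.80 and 88.0 CPM of these 3 genes. Most of their counts lay in the highest group. Krt20 with 32.4, 42.6, 500.2 and 1034 CPM and Slc26a3 with 11.2, 225, 1088 and 2015 CPM were already high in the third group. Tgm3, with 21.2, 1051, 3240.1 and 4887 CPM, was partly on in the second group. Dmbt1 differed from both, with 292, 2394, 2763 and 2915 CPM, and was near its highest level from the second group on.

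A set of genes peaked in the middle of the range. Aqp4, a basolateral water channel, had 208, 715, 411 and 83.3 CPM from the lowest to the highest group. Gsdmc4 had 291, 1561, 1663 and 1171 CPM, Gsdmc2 207, 838, 756 and 305 CPM and Gsdmc3 87.4, 402, 311 and 159.7 CPM. Gsdmc2 was thus highest in the second group and in the highest group was near the level of the lowest, although its relative Gsdmc4 was part of the score. Its ratio of surface over crypt-like cells lay between 0.889 and 1.38 over the alternatives tried, on both sides of 1. Stretches of the transcript ends are shared in part, since 48.7% of the 50-base stretches in the last 400 bases of Gsdmc3 are also in Gsdmc2, and these reads may be split between them. Fabp2, an intracellular fatty acid carrier, was also highest in the second group, at low counts, with 17.5, 83.7, 49.8 and 9.26 CPM. The water channels therefore lay in different groups, Aqp4 in the middle and Aqp8 at the top.

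Crypt genes were low from different points of the score on. Top2a had 193, 23.5, 12.5 and 9.26 CPM and Ascl2 61.2, 0, 2.08 and 4.63 CPM, and both were high in the lowest group alone. Cftr had 216, 185, 39.4 and 39.3 CPM and Ccnd2 895, 1109, 338 and 146 CPM, with high levels in both crypt-like groups. Ribosomal protein genes summed to 172231, 107808, 63864 and 45437 CPM, lower in each step, and brush border genes to 2726, 3971, 6028 and 7404 CPM, higher in each step. Cdkn1a had 91.1, 368, 947 and 1414 CPM and Klf4 605, 1501, 3203 and 3198 CPM. The crypt-like cells were therefore mixed, with most counts of dividing cells in the lowest group and some surface genes in the second. Median depth was 9776.5, 6070, 5140 and 4746.5 UMIs per cell in the same order, and its part in these values was not tested.

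**Figure D4:**
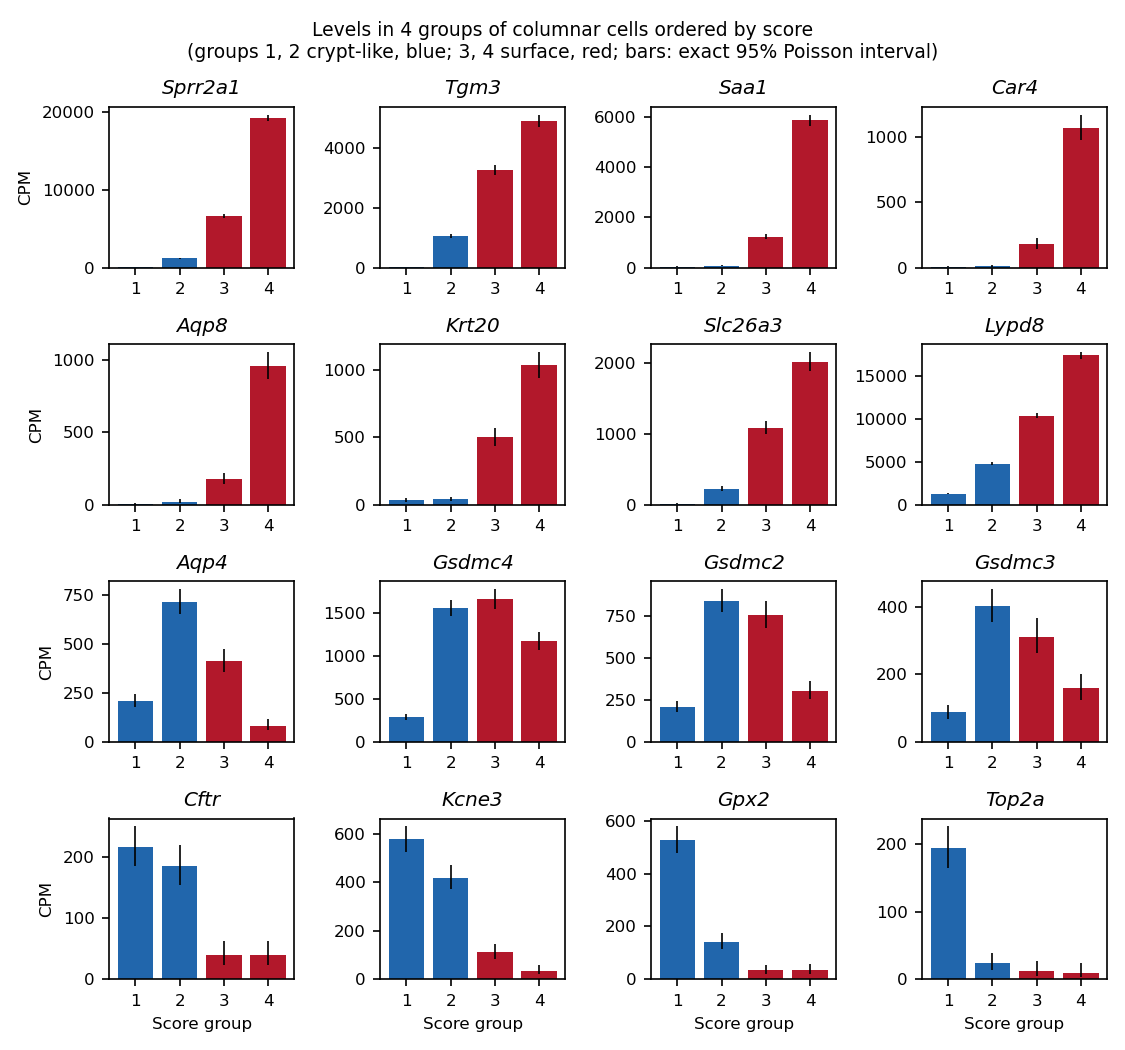
Level in CPM (vertical axis, each panel with its own scale from 0) of 16 genes in 4 groups of columnar cells ordered by score (groups 1 and 2 crypt-like, blue, and 3 and 4 surface, red), with exact 95% Poisson intervals for counting error. Car4, Aqp8 and Saa1 stand highest in group 4, Aqp4, Gsdmc2 and Gsdmc3 in group 2, and Cftr, Kcne3, Gpx2 and Top2a in group 1.

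Clustering the columnar cells without the 6 genes of the score gave 5 clusters, which remain numbered. Surface cells were 2 of 85 cells in cluster 1, 16 of 44 in cluster 2, 34 of 49 in cluster 3, 51 of 55 in cluster 4 and 28 of 29 in cluster 5. Cluster 1 was led by Clca3b, Nxpe2 and Gpx2, cluster 2 by Aqp4, Mgat4c and Hao2, cluster 4 by Krt20 and Apobec1 among others, and cluster 5 by Ifit1bl1, Aqp8 and Saa1. Cluster 3 stood apart in depth, with a median of 1873 UMIs per cell against 5323 to 11651 in the others, and was led by the immunoglobulin genes Igha and Igkc, products of plasma cells, ahead of Aqp8 and Car4. A single crypt-like cell held 215 of the 241 Igha UMIs of the cluster. Igha had UMIs in 71 surface cells, none with more than 24.1 per 10000, against 1609 per 10000 in that cell. In an alternative added after seeing the data, the surface cells outside cluster 3 numbered 97, and without cluster 3 in either group 385 genes were at least 2 times higher and 957 at most 0.5 times.

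Summed over the group, stromal, endothelial, enteroendocrine and tuft cell genes were at low levels in the surface cells. Goblet genes were not, at 1547 CPM, and Klk1 of that list had a UMI in 117 surface and 118 crypt-like cells. Single cells held large shares of some genes. A single surface cell held 84.6% of the Spink4 UMIs of its group, and a single one 71.4% of those of Best2. Single surface cells also held the large shares of Reg4, Cldn2 and Slc12a2 given above. Whether these were the same cell was not tested. An alternative that left out 66 kept cells as possible doublets took out 1 surface cell, and whether it was among these cells was not tested. The 14 goblet genes, 4 of them limited by the rule, summed to 1547 CPM in surface and 2113 CPM in crypt-like cells, with ratios of 2.59 (95% interval 1.92 to 3.51) for Zg16, one of the limited genes, and 0.211 (95% interval 0.159 to 0.275) for Agr2, a secretory cell disulfide isomerase. The 12 stromal and endothelial genes summed to 179 and 149 CPM against 30187 CPM in the stromal cells. Enteroendocrine genes summed to 5.47 and 51.3 CPM, and 1 crypt-like cell held 98.0% of all 49 Chga UMIs of its group, and tuft cell genes summed to 62.4 and 115 CPM. Of the 131 surface cells, 10 carried a cell barcode that also occurs in a tumor library. So did 6 of the 131 crypt-like cells and 50 of all 1108 barcodes of the normal library, and the cause was not tested.

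The same rule was applied to the treated tumors, with a further limit of fewer than 3 UMIs of the squamous keratins Krt5, Krt14 and Krt6a. It left 9 and 360 columnar cells at day 1, 104 at day 3 and 22 at day 6. Without the squamous limit there would have been 15, 989, 576 and 1169, so in 3 of these 4 libraries most cells that passed the other limits carried squamous keratin. In the same order, 2, 80, 88 and 19 of the columnar cells had scores above the median of the normal colon. Only day 1 replicate 2 and day 3 had at least 50 cells and were split at their own median score. These libraries differ from the normal colon in disease, drug and dissociation at once, and these cannot be told apart.

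Several genes that were high in normal surface cells were also higher in tumor cells of higher score. Krt20 had a ratio of higher over lower score of 7.74 (95% interval 6.26 to 9.66) at day 1 and 3.13 (95% interval 2.11 to 4.74) at day 3. Lypd8 had 6.43 (95% interval 5.94 to 6.98) and 1.54 (95% interval 1.38 to 1.73), and Car1 5.45 (95% interval 4.23 to 7.10) and 2.17 (95% interval 1.15 to 4.24). Prdx6 had 4.15 (95% interval 3.39 to 5.12) and 1.41 (95% interval 1.10 to 1.81), and Pmp22 10.3 (95% interval 7.06 to 15.3) and 1.35 (95% interval 0.833 to 2.22). Without the squamous limit, Krt20 and Lypd8 had 4.88 and 2.44 at day 3. The ratios of these 5 genes were above 1 in both tumors, and the interval of Pmp22 at day 3 included 1. Of genes added here after their values were seen, Sectm1b, high in normal surface cells, had 0.900 (95% interval 0.535 to 1.49) and 0.248 (95% interval 0.0997 to 0.543), below 1 in both, and Saa1 had 12.1 (95% interval 6.92 to 22.8) and 1.12 (95% interval 0.477 to 2.62). Squamous keratins also had ratios above 1 in the cells of higher score. Krt13 had 2.21 (95% interval 1.51 to 3.28) and 1.33 (95% interval 1.03 to 1.71). Krt5 and Krt14 were capped in each of these cells by the squamous limit. Under this cap Krt5 had 1.34 (95% interval 0.619 to 2.90) and 2.79 (95% interval 1.30 to 6.52), and Krt14 1.43 (95% interval 1.03 to 2.00) and 1.05 (95% interval 0.497 to 2.21). At day 1 Krt14 had 75 UMIs in cells of higher score and 75 in cells of lower score, so its ratio there came from the UMI totals alone. The part of these keratins in the ratios above was not tested. The transport genes at the top in normal colon were hardly counted in these cells. Of the higher-score cells, those at day 1 had 0 UMIs of Car4, 16 of Aqp8, 4 of Slc26a3 and 5 of Tgm3, and those at day 3 had 2, 0, 2 and 0. Sprr2a1 was at 9779 and 33628.5 CPM in the same cells, so in these tumor cells high Sprr2a counts came with few Tgm3 UMIs. Of genes low in normal surface cells, Gpx2 had at day 1 a ratio of 2.18 (95% interval 1.92 to 2.47), against 0.738 (95% interval 0.645 to 0.844) at day 3. Kcne3, Gstm1 and Ptma were also above 1 at day 1, at 1.88, 1.65 and 1.57. At day 3 they were below 1, at 0.265, 0.629 and 0.716. Hist1h2ap, Ttr, Cldn2 and Rnf186 had 1.35, 1.37, 1.22 and 1.91 at day 1, and of these only the interval of Hist1h2ap lay above 1. Nxpe2, Wbp5, Nr4a2, Cyr61 and Rasd1 were below 1 at day 1, and of these only the intervals of Nxpe2 and Wbp5 lay below 1. Rasd1 rested there on 0 UMIs in cells of higher score and 1 in cells of lower score. At day 3 Nxpe2 had 0.305 (95% interval 0.0546 to 1.15) and Wbp5 0.366 (95% interval 0.209 to 0.616). Cyr61, Nr4a2 and Rasd1 had 2, 1 and 0 UMIs in cells of higher score at day 3 and 1, 0 and 0 in cells of lower score. Lgr5 was below 1 in both, with 0.200 (95% interval 0.143 to 0.273) and 0.361 (95% interval 0.158 to 0.755).

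**Figure D5:**
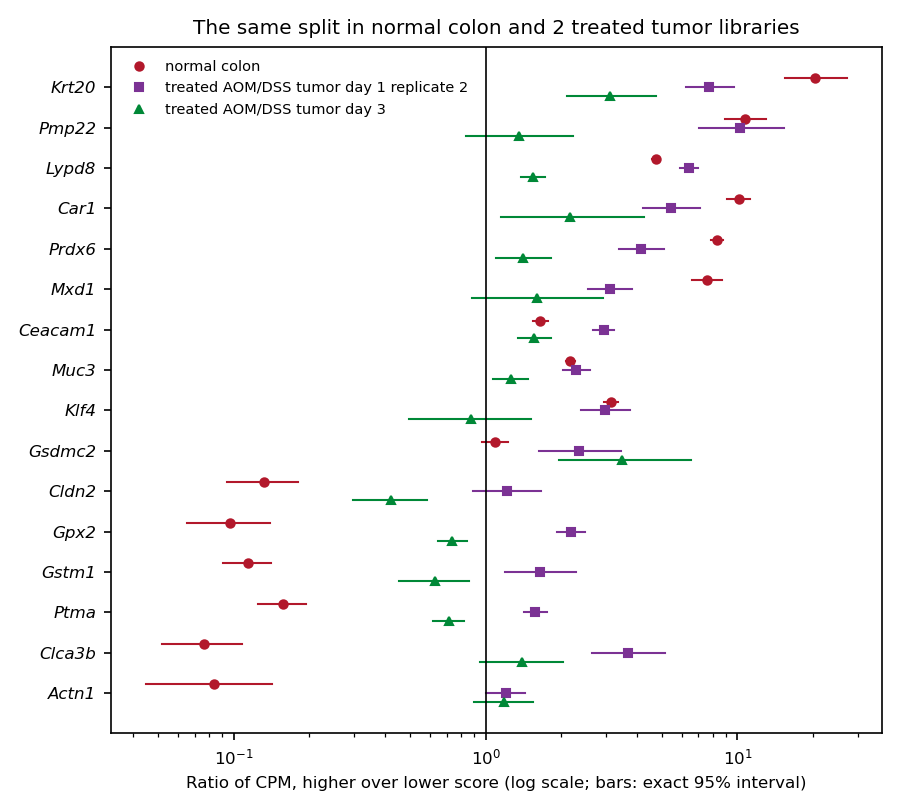
Ratio of CPM in cells of higher over lower score (log axis) for 16 genes in the normal colon (red circles), treated tumors at day 1, replicate 2 (purple squares) and treated tumors at day 3 (green triangles), with exact 95% intervals for counting error. Krt20 lies above 1 in the 3 libraries, at 20.3 in the normal colon, and Clca3b and Actn1 lie below 1 in the normal colon and above 1 in both tumor libraries.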

How the data were processed

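The authors deposited raw UMI counts per gene and cell barcode for 5 inDrop libraries, aligned to GRCm38 per the labels and the study's methods and quantified with dropEst. The limits of the study's analysis (500 genes, 15% mitochondrial counts) were applied here to the deposited barcodes. Genes are those of the deposited tables with hyphens restored. Members, gene lists and tests were chosen with earlier results of these data known. Counts were summed over cells, CPM ratios were given exact 95% intervals (SciPy 1.17.1), and genes past a ratio of 2 or 0.5 were counted from 50 UMIs. Named genes were the 15 highest and 15 lowest by log2 ratio with 20 CPM added, from 100 UMIs, without the genes of the score, the immune, endothelial, stromal, columnar and goblet genes of the rule and mitochondrial genes. From each list the 4 highest and 4 lowest could be named, and others where a family is described. Other genes named here were chosen after their values were seen. Cells were clustered on 2000 variable genes, 20 components and 20 neighbours (leidenalg 0.10.2, resolution 1). Scrublet (scanpy 1.11.5) marked 7 of 1095 kept cells as doublets, and none were removed in the main analysis. An alternative left out 66 kept cells, 1 surface and 2 crypt-like cells among them. The computation was tested on simulated counts. Promoters came from RefSeq (GRCm38.p6) and transcript ends from GENCODE vM21. Listed genes without a row in the tables were not analysed here.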

Additional observations from a re-analysis of the deposited data

Results flagged for a closer look

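Clca3b and Actn1 differed in direction between the normal colon and the treated tumors. In the normal colon the ratio of higher over lower score was 0.0760 for Clca3b and 0.0832 for Actn1. In both tumor libraries with at least 50 columnar cells it was above 1, at 3.68 (95% interval 2.66 to 5.15) for Clca3b at day 1 and 1.39 (95% interval 0.955 to 2.04) at day 3, and at 1.20 (95% interval 1.01 to 1.43) and 1.18 (95% interval 0.900 to 1.54) for Actn1. The intervals at day 3 included 1, and the difference between normal colon and tumors was not tested. Of the 33 Clca3b UMIs in normal surface cells, 63.6% came from 1 cell. Rnf186, with 0.0921 in the normal colon, was also above 1 in both tumor libraries, at 1.91 and 1.49. These rested on 4 UMIs in cells of higher score and 3 in cells of lower score in each library.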

How the results depend on the processing

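The number of surface cells ran from 88 to 131 over all settings. Counts of genes depended on the minimum of UMIs, since fewer or more genes then enter. Without a minimum, 2002 genes were at least 2 times higher and 5171 at most 0.5 times. With at least 200 UMIs these were 192 and 291, and with each cell thinned to 1000 UMIs 124 and 158. The number of genes tested also differed between these settings, so the counts cannot be compared as shares. Under all other settings both counts stayed within 1.5 times the reported ones. Lypd8 in the tumors moved beyond its interval. At day 1 its ratio was 5.23 without the squamous limit and 5.63 when split at the median score of the normal colon, and at day 3 it was 2.44 and 2.00. Krt20 at day 3 had 4.88 without the squamous limit. Of 796 recomputed ratios of 42 genes over 19 settings, 674 stayed within the main interval, 122 moved beyond it and none of those past a ratio of 2 or 0.5 changed direction. The cause of these shifts was not tested. Leaving out cluster 3 and taking totals without ribosomal protein and score genes were added after seeing the data. Such totals gave 328 and 1035 of 6501 genes and a median log2 ratio of -0.18. Leaving out the crypt-like cell with the most Igha, also added after seeing the data, turned the summed immune level from a ratio of 0.581 to 1.10, since that cell held 215 Igha UMIs. No paired analysis was possible because there is 1 normal library and the results come from no test. No library could be left out, since the normal colon has 1 and only 1 of both day 1 libraries had enough columnar cells.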

Other observations

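Sprr2a1 and Sprr2a2 were counted in different proportions between libraries, although the last 400 bases of their annotated transcripts share every stretch of 50 bases. Among all columnar cells, without the squamous limit, Sprr2a1 had 0.916 times the UMIs of Sprr2a2 in the normal colon (95% interval 0.894 to 0.939). It had 1.42 times in day 1 replicate 2 and 1.38 times in day 6, which like the normal colon are labelled dual index. It had 2.32 times in day 1 replicate 1 and 2.40 times in day 3, which are labelled single index.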
